A study of Mus musculus with 2 samples.

Results

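The epidermal lipoxygenase pathway was followed here through 10 genes in the skin of newborn *Pnpla1*-/- mice. These mice lack a lipase-family enzyme that adds linoleate to form acylceramide. The genes are *Alox12b*, *Aloxe3*, *Sdr9c7* and *Ephx3* of the barrier route, the other lipoxygenase genes *Alox8*, *Alox12*, *Alox12e* and *Alox15*, and *Alox5* with its helper *Alox5ap*. They were chosen by the gene name that the array gives to each probe, and all 10 had a probe, 12 probes in all of 39429 on the array (30133 genes). The question was which steps of linoleate and arachidonate oxygenation differed in transcript level between skin with and without *Pnpla1*.

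Lipoxygenases insert oxygen into polyunsaturated fatty acids and leave a hydroperoxide. In the outer epidermis the product of *Alox12b* oxygenates the linoleate of acylceramide, the product of *Aloxe3* turns that hydroperoxide into an epoxyalcohol, and the product of *Sdr9c7* oxidizes the epoxyalcohol to an epoxyketone. These steps precede the attachment of ceramide to the cornified envelope, and loss of any of these enzymes causes congenital ichthyosis in humans. The leukocyte enzyme encoded by *Alox5* works on arachidonate instead and starts the leukotrienes, which call in neutrophils.

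Total RNA came from skin at postnatal day 0, on a C57BL/6N background, from *Pnpla1*+/+ and from *Pnpla1*-/- pups. The sample labels give the tissue as skin, while the design text names epidermis, so how much dermis was present is uncertain for the fibroblast, hair follicle and leukocyte markers below. The null mice were a constitutive knockout derived from embryonic stem cells of the same substrain, so the gene is missing in every tissue, and the controls were wild-type littermates. RNA of 6 animals per genotype was pooled and hybridized with 1 dye (Cy3) to 1 Agilent array, so that there is 1 sample of each genotype, no replicate and no test between genotypes. Every difference below describes these 2 pools, and fewer cells of a type and less RNA per cell cannot be told apart in them.

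Intensities are given as the authors deposited them, background-subtracted and not scaled between arrays, with the error that the scanner software assigns to the spot. Every difference is the log2 ratio of *Pnpla1*-/- over *Pnpla1*+/+ once each array had been divided by its 75th percentile of intensity, 2108 in *Pnpla1*+/+ and 1734 in *Pnpla1*-/-. The arrays carried 43020 spots each, of which 71.7% and 73.3% were well above background, and none was saturated. Precision is limited by there being 1 array per genotype. The scanner error of a member's difference had a median of 0.20 on the log2 scale. Repeated spots of 385 other probes gave a smaller technical SD of 0.09 for a difference, and each member probe had 1 spot. Neither figure holds any variation between mice.

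*Pnpla1* itself, at chr17:29026908-29026967 of mm9, read 579 in *Pnpla1*+/+ skin and 114 in *Pnpla1*-/- skin (a difference of -2.07), in the direction of the labels, and its spot was well above background in both. Markers of the labelled tissue were bright on both arrays, with *Krt10* of the suprabasal epidermis at 277989 and 262539.8 and *Col1a1* of dermal fibroblasts at 101801 and 93319. The sexes of the pups are not given, and *Xist* was higher by 1.12 while the Y-linked *Ddx3y* and *Eif2s3y* both had a difference of -2.19. No lipoxygenase pathway gene lies on a sex chromosome, and the part of sex in the results was not tested.

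Of the 10 genes, 9 had a difference or a bound, and *Alox15* was well above background on neither array. 5 of the 9 were at least 2-fold higher in *Pnpla1*-/- skin, *Alox8*, *Alox5ap*, *Alox5*, *Sdr9c7* and *Ephx3*, and 0 were at least 2-fold lower. That compares with 6.70% of all 22374 genes past 2-fold upward and 3.04% past 2-fold downward. Among the 20680 genes measured on both arrays, as 8 of the 9 were, the shares were 5.65% and 2.56%, and 4 of those 8 were at least 2-fold higher. Without scaling and with spike-in centring 2 of the 9 were at least 2-fold higher, *Alox8* and *Alox5ap*, against 4.47% and 3.74% of all genes. The median over the 9 genes was 1.10 against 0.0026 over all genes, and 0.93 without *Alox8*, which has a value only because it was bright on the *Pnpla1*-/- array. *Alox12b* was higher by less than 2-fold, *Alox12* and *Alox12e* were lower by less than 2-fold, and *Aloxe3* was level within the scanner error.

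**Figure D1:**
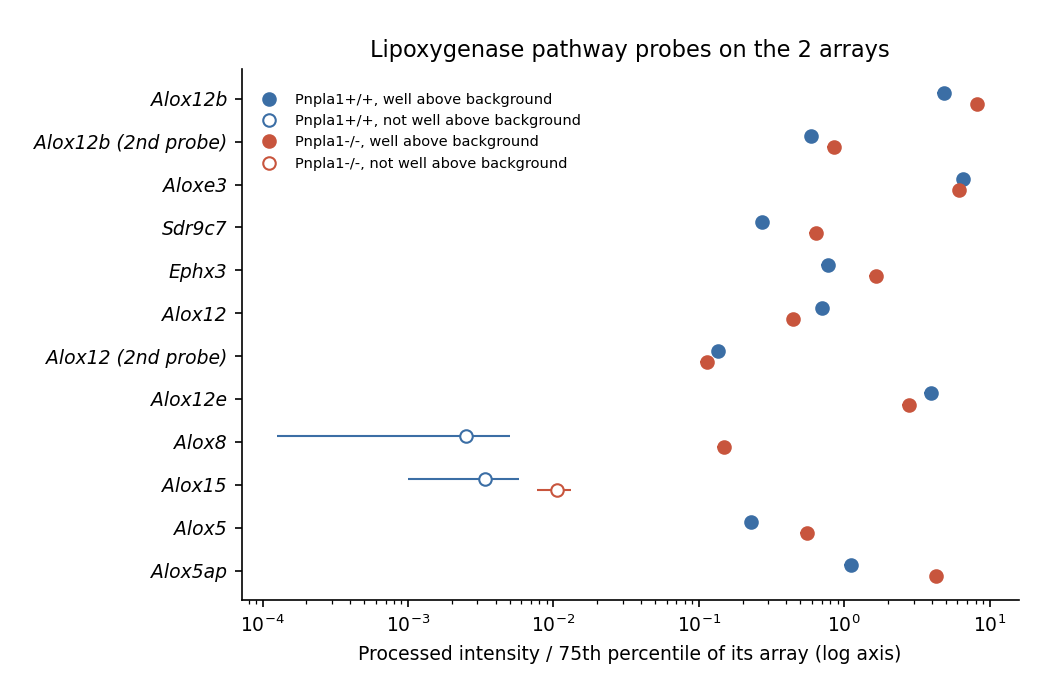
Processed intensity of each of the 12 probes divided by the 75th percentile of its array (log axis), with *Pnpla1*+/+ in blue and *Pnpla1*-/- in red. Bars are the scanner error (the lower bar of *Alox8* is cut short) and open circles are spots not well above background. The pairs for *Alox5*, *Alox5ap*, *Sdr9c7* and *Ephx3* stand apart with the red point to the right, *Alox8* has an open blue point, and both points of *Alox15* are open. Positions of different probes cannot be set against each other.

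*Alox12b*, the first lipoxygenase of the barrier route, was measured by 2 probes. The probe nearer the 3′ end of the gene, at chr11:68983186-68983245, read 10255 ± 1025 in *Pnpla1*+/+ and 14240.4 ± 1424 in *Pnpla1*-/- skin, a difference of 0.76 (1.69-fold). The other, at chr11:68979536-68979770, covers 235 bases of genome with 60 bases of probe and so lies across a splice junction. It read 1251 ± 125 and 1478 ± 148, a difference of 0.52. Both probes were higher in *Pnpla1*-/- skin and both were under 2-fold. Over 5111 genes with more than 1 measured probe the range between probes had a median of 0.18 and an upper quartile of 0.39, and the *Alox12b* pair lay between these, while the *Alox12* pair given below lay just above the upper quartile.

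The sequences of the *Alox12b* and *Alox12* probes are shown because their 2 readings of 1 gene differ in size. The junction probe of *Alox12b* and the inner probe of *Alox12* are given whole, the 3′ probes and the single probe of *Alox8* by bases 31 to 60, all 5′ to 3′ on the strand of the transcript and in lower case throughout.
Alox12b, chr11:68979536-68979770, plus strand: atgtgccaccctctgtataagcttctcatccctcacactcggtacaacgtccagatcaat
Alox12b, chr11:68983186-68983245, plus strand: atttccatctagtccacccttctgccctcc
Alox12, chr11:70063629-70063688, minus strand: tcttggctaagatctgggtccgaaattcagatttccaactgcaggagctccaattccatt
Alox12, chr11:70055715-70055774, minus strand: cactaaatgtcttgctgttatgaggaacaa
Alox8, chr11:68997387-68997446, minus strand: atattacaggcatcaaagttttggatcttc
Over the 66 pairs of member probes the longest run of bases in common was 8. None of the 12 shared a run of 20 bases, on either strand, with another of the 39429 probes.

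*Aloxe3*, whose product takes over the hydroperoxide from the *Alox12b* enzyme, did not follow it. Its probe at chr11:68962557-68962616 read 13886 ± 1389 in *Pnpla1*+/+ and 10748 ± 1075 in *Pnpla1*-/- skin, a difference of -0.09 after scaling. The gap between the differences of *Alox12b* and *Aloxe3* was 0.84, with a combined scanner error of 0.29, and ran from 0.73 to 0.84 over the 12 alternative ways of processing. Scaling by 1 constant per array and the filters cannot move this gap, so its narrow range is no measure of stability. With 1 array per genotype the gap was not tested. The level of both genes against the array as a whole depended on the scaling. *Aloxe3* was at -0.37 without scaling and -0.51 when centred on the spike-in RNA, and *Alox12b* at 0.47 and 0.33.

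*Sdr9c7*, the dehydrogenase of the third step, was higher. Its probe at chr10:127348150-127348209 read 577 ± 58.0 in *Pnpla1*+/+ and 1108 ± 111 in *Pnpla1*-/- skin, a difference of 1.22 (2.34-fold), and 4.84% of all genes had a larger one. *Ephx3*, an epoxide hydrolase that opens fatty acid epoxides in epidermis, read 1628 ± 163 and 2873 ± 287 at chr17:32320715-32320774, a difference of 1.10 (2.15-fold). *Ephx3* is on the same chromosome as the targeted gene, with 3.29 Mb between their probes. Both differences were larger than the scanner error, and both went under 2-fold without scaling (0.94 for *Sdr9c7* and 0.82 for *Ephx3*) and with spike-in centring (0.80 and 0.68).

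*Alox8* gave the largest difference of the pathway. The enzyme oxygenates arachidonate in mouse skin and is known as a lipoxygenase that irritated skin switches on. Its only probe read 5.27 ± 5.25 in *Pnpla1*+/+ skin, not well above background and a surrogate value set by the scanner software, and 257 ± 26.2 in *Pnpla1*-/- skin, where it was well above background. Set against the lowest intensity well above background on the *Pnpla1*+/+ array, 23.9, the *Pnpla1*-/- signal was 13.1-fold higher after scaling. This gives a bound of 3.71 on the log2 scale, which depends on this floor and is no strict minimum. The bound was 2.23 with normexp background correction, still past 2-fold. It rests on 1 spot on each array.

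*Alox12* and *Alox12e* went the other way. *Alox12* encodes the platelet-type enzyme, which is also made in epidermis, and *Alox12e* an epidermal enzyme of the mouse. *Alox12* read 1487 ± 149 in *Pnpla1*+/+ and 775 ± 77.6 in *Pnpla1*-/- skin at its 3′ probe, a difference of -0.66. Its inner probe, at 287 ± 29.2 and 197 ± 20.3, gave -0.26, close to the scanner error of 0.21 for that probe. *Alox12e*, at chr11:70129157-70129216, read 8349 ± 835 and 4827 ± 483, a difference of -0.51 (1.42-fold lower). Only spike-in centring took either of them past 2-fold, *Alox12* at -1.08, and under each of the 12 alternatives both stayed below 0. The background filters and outlier flags among these could not change either value.

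*Alox15*, the enzyme of macrophages and eosinophils, read 7.19 ± 4.99 in *Pnpla1*+/+ and 18.1 ± 4.83 in *Pnpla1*-/- skin at chr11:70159115-70159339. Neither spot was well above background, and no fold is given.

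*Alox5* and *Alox5ap* encode the enzyme that starts leukotriene synthesis and the membrane protein that hands it arachidonate. *Alox5*, at chr6:116360326-116360385, read 484 ± 48.6 in *Pnpla1*+/+ and 959.9 ± 96.1 in *Pnpla1*-/- skin, a difference of 1.27 (2.41-fold). *Alox5ap*, at chr5:150099347-150099406, read 2345 ± 235 and 7469 ± 747, a difference of 1.95 (3.87-fold), which 1.94% of genes exceeded. *Alox5ap* stayed past 2-fold under all 12 alternatives, between 1.53 and 2.01, while *Alox5* fell to 0.99 without scaling and 0.85 with spike-in centring. Each has a single probe, well above background on both arrays, so probe choice, background filters and outlier flags could not change these values.

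**Figure D2:**
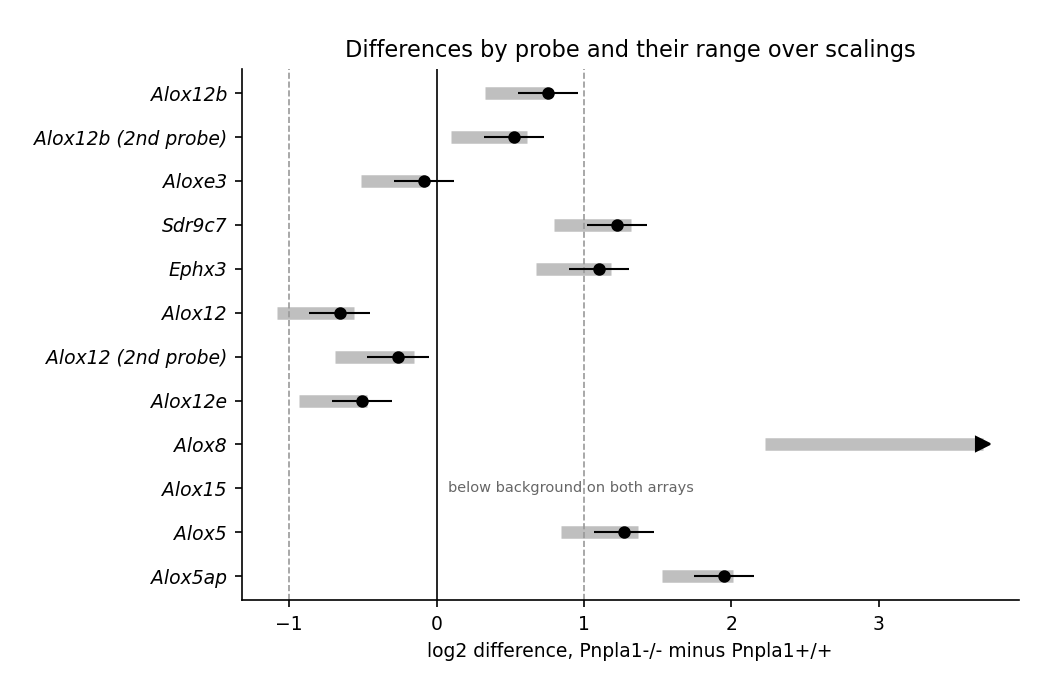
log2 difference (*Pnpla1*-/- minus *Pnpla1*+/+) for each probe, with the scanner error as a thin bar and, in grey, the range over the other scalings, background corrections and input values. The arrowhead of *Alox8* is a lower bound, *Alox15* has no value, and dashed lines mark 2-fold. *Alox8* and *Alox5ap* lie wholly to the right of the 2-fold line, the grey bars of *Alox5*, *Sdr9c7* and *Ephx3* cross it, and those of *Alox12* and *Alox12e* lie left of 0.

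These readings of the leukotriene genes stand beside a change in leukocyte transcripts. All 6 neutrophil markers were above 0, but 4 without scaling and 3 with spike-in centring. 3 of 6 passed 2-fold upward under all of these, against 6.70%, 4.47% and 3.74% of all genes in turn. The median of the 6 was 1.89 with the scaling used here. It was 0.42 over the 5 measured on both arrays, since *Cxcr2* has a value only through its signal in *Pnpla1*-/- skin. They were uneven, since *Mpo* differed by 4.35, *Ngp* by 3.36 and *Cxcr2* by a bound of 5.90, but *Ly6g* by 0.42, *Camp*, the brightest, by 0.18 and *Elane* by 0.05. The summed scaled signal of the neutrophil list was 2.14 in *Pnpla1*+/+ and 3.61 in *Pnpla1*-/- skin. Different probes cannot be set against each other. The sums and the brightest gene named for each list thus describe signal, not amounts of transcript, and do not rank genes or lists. The 5 macrophage markers had a median of 0.88, with *Lyz2* at 2.35, *Adgre1* at 1.24 and *Csf1r*, the brightest, at 0.67, and their summed signal went from 12.2 to 21.7. Of these 5, 2 passed 2-fold upward, against 6.70% of all genes. Without scaling and with spike-in centring 1 of the 5 did (medians 0.59 and 0.45), against 4.47% and 3.74% of all genes. The 5 mast cell markers were all below 0 (1 was above 0 with cyclic loess), at a median of -0.52 with *Cpa3* brightest, and a summed signal of 56.6 and 39.8. Of 4 eosinophil markers, *Epx* was well above background in *Pnpla1*+/+ skin only (a bound of -1.19) and *Prg2* was well above background on neither array. The median of the 3 with a value was 0.64, *Siglecf* being the brightest and the summed signal 0.0705 and 0.0843. The part of leukocyte content in the values of *Alox5* and *Alox5ap* was not tested.

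The 5 platelet markers, set beside *Alox12*, spread from -1.43 (*Ppbp*) to 1.53 (*Gp9*), with *Pf4*, the brightest, at -0.13, a median of 0.30 and a summed signal of 19.6 and 17.8. For the keratinocytes that hold the barrier lipoxygenases, the 4 suprabasal markers had a median of 0.15, from -0.30 for *Lor* to 0.35 for *Dsg1a*, with a summed signal of 375 and 384 and *Krt10* the brightest. The 4 basal markers had a median of 0.08 and went both ways, with *Krt14* at 1.35, *Krt5*, the brightest, at 0.22, *Itgb4* at -0.05 and *Col17a1* at -0.29. Their summed signal was 137 and 193, and the *Krt14* probe in it read 53789 and 112502. The 4 fibroblast markers had a median of -0.08, from -0.91 for *Dpt* to 0.16 for *Col1a1*, with *Col1a2* brightest and sums of 255 and 245. Without scaling and with spike-in centring 1 of them was at least 2-fold lower, against 6.37% and 9.68% of all genes, with medians of -0.36 and -0.50. The 5 hair follicle markers were all below 0, with a median of -0.85, *Krt71* brightest and sums of 79.2 and 45.3. The lower values of *Alox12* and *Alox12e* stood beside lower medians of hair follicle (-0.85) and mast cell (-0.52) markers and nearly level suprabasal markers. The fibroblast marker *Dpt* was lower as well, and the part of any of these cells in the results was not tested. With spike-in centring the medians of the basal (-0.34), suprabasal (-0.27) and platelet (-0.13) lists were below 0. The basal and suprabasal medians were also below 0 without scaling (-0.20 and -0.13) and with quantile normalization (-0.03 and -0.07). Cyclic loess gave -0.03 for the suprabasal list. Of the 5 hair follicle markers, 1 was at least 2-fold lower, against 3.04% of all genes. Without scaling and with spike-in centring 4 of 5 were, against 6.37% and 9.68% of all genes.

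**Figure D3:**
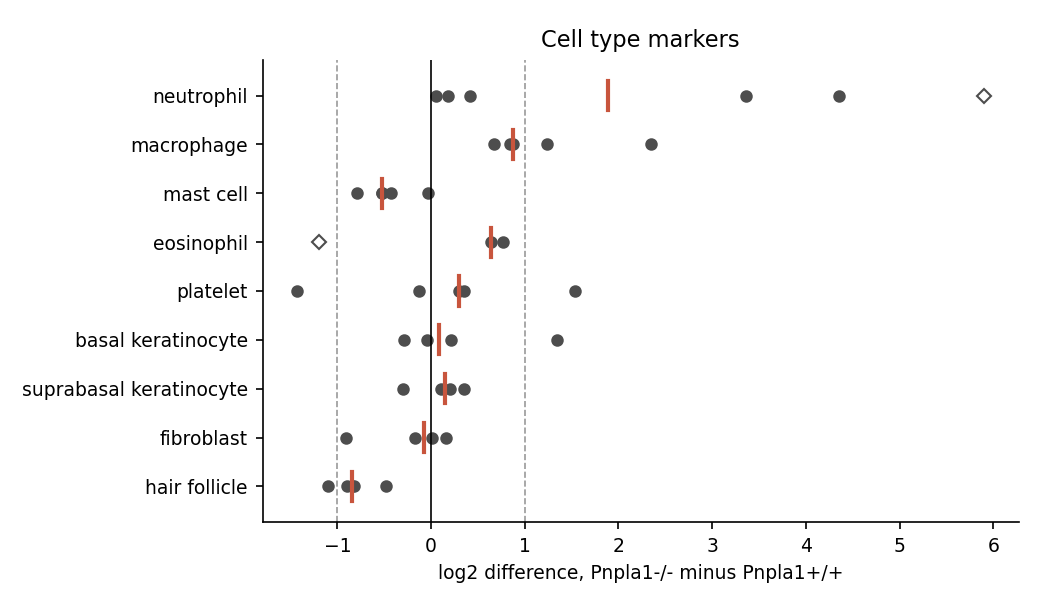
log2 difference (*Pnpla1*-/- minus *Pnpla1*+/+) of each marker gene by cell type. Diamonds are bounds, red ticks are list medians and dashed lines mark 2-fold. Neutrophil and macrophage markers lie right of 0, mast cell and hair follicle markers left of 0, and suprabasal keratinocyte markers within 0.35 of 0, on the 75th percentile scaling (with spike-in centring 3 neutrophil markers and no suprabasal marker lie right of 0).

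6 of the 10 genes lie in 2 groups on chromosome 11. In the order of the reference annotation *Aloxe3*, *Alox12b* and *Alox8* are next to one another among measured genes, and gave -0.09, 0.76 and a bound of 3.71. Of the 5 measured genes on each side, 0 of 10 were at least 2-fold higher and 2 were at least 2-fold lower, *Rnf227* at -2.16 and *Kcnab3* at -1.30, with a median of -0.40. The gene after *Alox8*, *Gucy2e*, had a bound of -0.79. No neighbour had a value like that of *Alox8*. In the other group *Alox12* and *Alox12e* gave -0.66 and -0.51, both lower, and *Alox15* had no value. The inner probe of *Alox12* gave -0.26, close to its scanner error. Around them, 2 of 10 neighbours were at least 2-fold higher, the chemokine gene *Cxcl16* at 1.88 and *Zmynd15* at 1.66, and 0 were at least 2-fold lower. For both sets of 10 neighbours, the shares over all genes were 6.70% higher and 3.04% lower.

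**Figure D4:**
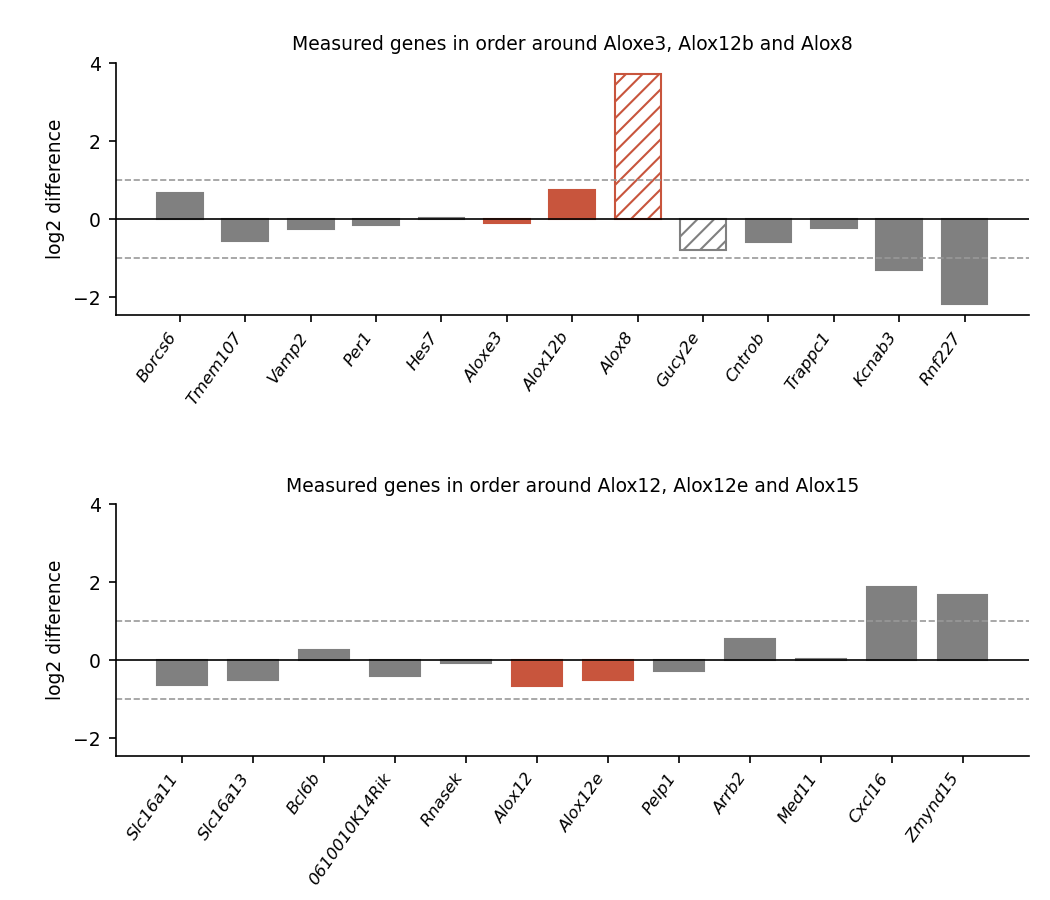
log2 difference (*Pnpla1*-/- minus *Pnpla1*+/+) of measured genes in annotation order around both lipoxygenase groups, with the lipoxygenases in red, other genes in grey and bounds hatched. *Alox8* stands alone at 3.71 between *Alox12b* and *Gucy2e*, and *Alox12* and *Alox12e* sit among neighbours of either sign. Dashed lines mark 2-fold.

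The single genes lay among neighbours that were mostly level. No neighbour of *Alox5ap*, *Ephx3* or *Sdr9c7* had a difference or bound past 2-fold in either direction, 0 of 30 with medians of -0.03, 0.04 and 0.15. *8430423G03Rik*, beside *Alox5ap*, was detected in *Pnpla1*-/- skin only and has a lower bound of 0.41, so its difference may be larger. The genes before *Sdr9c7* are retinol dehydrogenase relatives of it, and among them *Rdh9* had the largest difference at 0.92. Around *Alox5*, *Rassf4* at 1.35 and *Depp1* at 1.02 were higher and *Zfand4* at -2.17 was lower. Over all 60 neighbours, 4 were at least 2-fold higher and 3 lower, with a median of 0.02. Over all genes the shares were 6.70% and 3.04%. The count of higher neighbours was at the background, and neither count is read as a result about these loci.

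Promoters are shown for *Alox8*, the gene detected in *Pnpla1*-/- skin only, for its neighbour *Alox12b*, for *Alox12e*, which went the other way, and for *Sdr9c7*. Each run is the 250 bases before the start of the gene in RefSeq on GRCm38.p6, 5′ to 3′ on the strand of the gene. Capitals mark the TATA box, TATAAA, and the GC box, which is spelt GGGCGG. On the opposite strand the GC box appears as CCGCCC.
Alox8, chr11:69197844-69198093, minus strand: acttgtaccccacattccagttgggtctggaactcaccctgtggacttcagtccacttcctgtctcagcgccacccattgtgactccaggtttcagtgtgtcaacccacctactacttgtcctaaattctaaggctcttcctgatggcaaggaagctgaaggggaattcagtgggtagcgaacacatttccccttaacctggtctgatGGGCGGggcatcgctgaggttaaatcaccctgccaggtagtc
Alox12b, chr11:69156822-69157071, plus strand: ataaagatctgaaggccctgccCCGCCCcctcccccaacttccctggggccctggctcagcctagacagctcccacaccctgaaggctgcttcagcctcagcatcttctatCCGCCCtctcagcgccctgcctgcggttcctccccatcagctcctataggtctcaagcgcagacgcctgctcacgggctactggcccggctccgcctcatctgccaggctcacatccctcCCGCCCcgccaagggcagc
Alox12e, chr11:70322531-70322780, minus strand: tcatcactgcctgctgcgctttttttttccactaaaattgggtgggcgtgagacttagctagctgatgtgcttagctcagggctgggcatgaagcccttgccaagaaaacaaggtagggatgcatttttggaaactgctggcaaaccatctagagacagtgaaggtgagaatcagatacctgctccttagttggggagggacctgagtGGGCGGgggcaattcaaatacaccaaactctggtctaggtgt
Sdr9c7, chr10:127898285-127898534, plus strand: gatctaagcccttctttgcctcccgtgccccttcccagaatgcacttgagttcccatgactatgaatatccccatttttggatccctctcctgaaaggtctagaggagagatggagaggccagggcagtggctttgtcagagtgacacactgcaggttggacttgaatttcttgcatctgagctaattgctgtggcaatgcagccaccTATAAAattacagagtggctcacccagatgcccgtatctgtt
Of the 10 genes, 7 had a promoter in the table, all but *Alox5ap*, *Alox15* and *Aloxe3*. The GC box was found on either strand in 6 of these 7 and in 32.7% of 32851 promoters of the same length. It starts 42 bases before the start in both *Alox8* and *Alox12e*. *Sdr9c7* was the exception, with a TATA box 42 bases before its start, a motif found in 12.4% of promoters. The AP-1 element, TGANTCA, was found in 0 of the 7 and in 6.75% of all promoters. The motifs were chosen after the expression values were known, and matches are given as letters in these windows only.

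The genes that make, move and attach acylceramide differed mostly in the direction of *Sdr9c7*. Of 14 such genes, 6 were at least 2-fold higher, 0 at least 2-fold lower and 13 above 0, with a median of 0.95, against 6.70% higher, 3.04% lower and a median of 0.0026 over all genes. Without scaling and with spike-in centring 3 of the 14 were at least 2-fold higher, with medians of 0.67 and 0.52. The shares over all genes were 4.47% higher and 6.37% lower without scaling, and 3.74% higher and 9.68% lower with spike-in centring. *Degs2*, a ceramide desaturase and hydroxylase, was highest at 1.97, then *Tgm1*, the transglutaminase of the envelope, at 1.86, *Lipn*, a lipase of the granular layer, at 1.73, *Ugcg*, which makes glucosylceramide, at 1.26, *Cers3*, the ceramide synthase of very long acyl chains, at 1.22 and *Cyp4f39*, the fatty acid hydroxylase, at 1.18. The last 3 went under 2-fold with spike-in centring, at 0.83, 0.80 and 0.75. The lowest were *Elovl1* at -0.09, the fatty acid transporter *Slc27a4* at 0.21 and the sphingomyelinase *Smpd1* at 0.33, and both *Slc27a4* (-0.22) and *Smpd1* (-0.10) were below 0 with spike-in centring. The value of *Aloxe3*, -0.09, was thus next to that of *Elovl1* at the low end of this route, and *Alox12b* at 0.76 lay below the median of the list. The list was drawn up with earlier results of these arrays known, so that its count is not independent evidence of direction.

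Enzymes that act beside the lipoxygenases and receptors for their products were more mixed. Of 15, 2 were at least 2-fold higher, 0 at least 2-fold lower and 10 above 0, with a median of 0.31, against the same 6.70% and 3.04% of all genes. The direction of this median depended on the scaling, with 0.025 without scaling and -0.12 with spike-in centring. With spike-in centring 1 gene was at least 2-fold higher and 1, *Ephx1* at -1.02, at least 2-fold lower, against 3.74% and 9.68% of all genes. Both that passed 2-fold upward with the scaling used here were leukotriene receptors. *Ltb4r1*, the receptor through which leukotriene B4 draws in leukocytes, read 1258 in *Pnpla1*+/+ and 6368 in *Pnpla1*-/- skin, a difference of 2.62 (6.15-fold). *Cysltr1*, a receptor for the cysteinyl leukotrienes, read 258 and 546, a difference of 1.36, or 0.94 with spike-in centring. The other receptors, *Ltb4r2* at 0.95 and *Cysltr2* at 0.86, were under 2-fold. *Ltb4r1* and *Cysltr1* are known from leukocytes, whose markers were uneven as given above, with medians of 0.42 for the neutrophil markers measured on both arrays, 0.88 for macrophage and -0.52 for mast cell markers, and the part of leukocyte content in the receptor values was not tested.

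Between *Alox5* and these receptors the enzymes differed less. *Lta4h*, which makes leukotriene B4, gave -0.08 and *Ltc4s*, which starts the cysteinyl branch, 0.77. *Pla2g4a*, the phospholipase that frees arachidonate, gave 0.31 and *Cotl1*, an actin-binding partner of the *Alox5* enzyme, 0.29, and both were below 0 with spike-in centring. Of the glutathione peroxidases that reduce hydroperoxides, *Gpx1* was at 0.98, *Gpx3* at 0.69, *Gpx4* at -0.06 and *Gpx2* at -0.27. The other epoxide hydrolases did not follow *Ephx3*, with *Ephx1* lowest of the list at -0.59, *Ephx4* at -0.28 and *Ephx2* at 0.03.

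**Figure D5:**
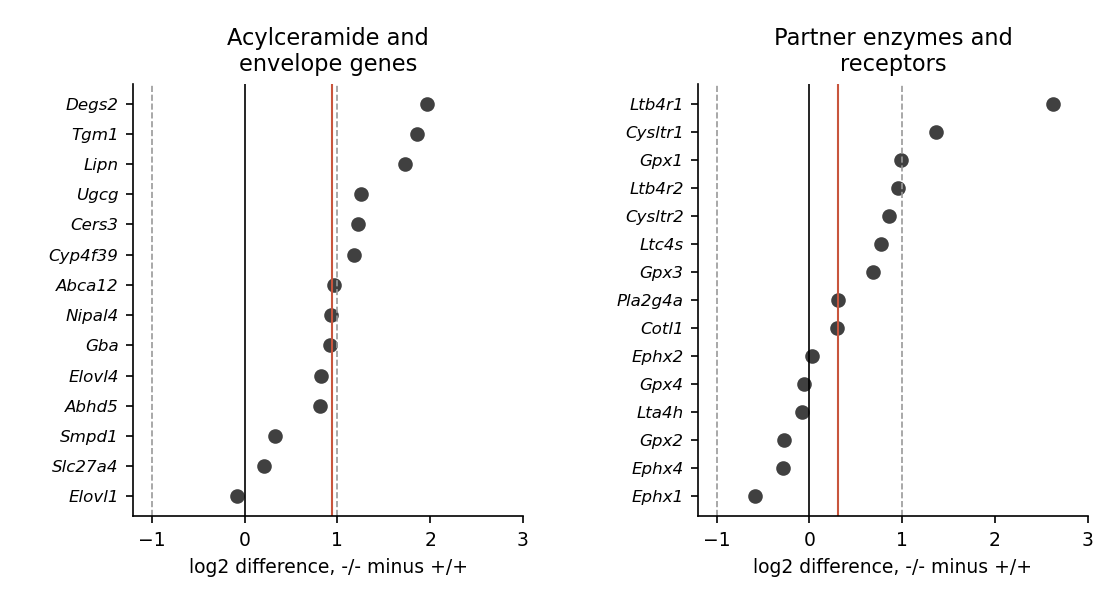
log2 difference (*Pnpla1*-/- minus *Pnpla1*+/+) of the 14 acylceramide and envelope genes on the left and the 15 partner enzymes and receptors on the right, with list medians of 0.95 and 0.31 as red lines and 2-fold as dashed lines. On the left all but *Elovl1* lie right of 0 (with spike-in centring *Slc27a4* and *Smpd1* do not), and on the right *Ltb4r1* stands apart at 2.62.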

How the data were processed

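The authors labelled 200 ng of pooled RNA per array and hybridized it to Agilent 4x44K arrays, and per the file headers Feature Extraction 11.5.1.1 gave each spot a deposited linear intensity after spatial detrending and background subtraction, with an error, flags and probe positions on mm9. The authors also deposited a ratio that divides this intensity by a constant of the array (2109 in *Pnpla1*+/+, 1734 in *Pnpla1*-/-). Here, log2 intensities were centred on the 75th percentile of the array, taken without control spots (Python 3.11.15, numpy 2.4.6, pandas 2.3.3). Spots flagged as outliers on either array were left out (138 and 82), and repeated spots were averaged. A gene was represented by its brightest probe. Genes well above background on 1 array have a bound, for which the dim side was set to its own signal or to the dimmest detected probe of that array, whichever was higher. Of 39429 probes, 27508 were named through accession, 3544 by symbol and 404 by older symbol in RefSeq on GRCm38.p6, and 7973 kept the array's name.

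With 1 array per genotype no test was run, and 2-fold was the threshold. The members, gene lists and settings were chosen with earlier results of these data known. All members were named, with *Pnpla1*, the 3 highest, 3 lowest and 2-fold changed genes of each pathway list (other list genes were added after their values were seen), the 2-fold changed genes among 5 neighbours on each side of a locus, and 9 marker lists (a list of red cell markers is not reported here). The 12 alternatives covered scaling, quantile normalization, cyclic loess and normexp with an offset of 50 (limma 3.58.1, R 4.3.3), spike-in centring, the authors' ratios, probe choice, background filters and outlier flags, besides thresholds of 1.5-fold and 3-fold. The computation was tested on simulated data. With 1 array a group, no replicate could be left out and no slide term used.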

Additional observations from a re-analysis of the deposited data

How the results depend on the processing

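No paired analysis was possible because each genotype has 1 array. All 9 pathway genes with a value kept their direction under each of the 12 alternatives that gave one. For a gene with a single probe well above background on both arrays, probe choice, background filters and outlier flags could not change the value. The authors' ratios use almost the same constants as the scaling used here. The count of 12 is therefore no measure of stability. More results moved when the arrays were centred on 8 spike-in probes, which were higher by 0.43 on the *Pnpla1*-/- array after scaling, or left unscaled, and by construction, since these settings shift the median of all genes by -0.43 and -0.28. With spike-in centring 2 pathway genes were at least 2-fold higher and 1 lower, with a median of 0.68. The acylceramide list then had 3 genes higher and a median of 0.52, the partner list 1 higher, 1 lower and a median of -0.12, *Pnpla1* was at -2.49, and 3.74% of all genes were higher and 9.68% lower. Without scaling 2 pathway genes were higher, with a median of 0.82, the acylceramide list had 3 higher and a median of 0.67, the partner list a median of 0.025, *Pnpla1* was at -2.35, and 4.47% and 6.37% of all genes were higher and lower. Normexp correction gave -1.51 for *Pnpla1* and 4.34% higher and 1.45% lower, and the cause was not tested. No filter on dim probes gave 10.1% and 3.67%, since dim genes then count. Of the genes past 2-fold, 68.8% were higher with the scaling used here, 58.8% with quantile normalization, 41.2% unscaled and 27.9% after spike-in centring. At 1.5-fold 6 pathway genes were higher and 1 lower, 11 acylceramide genes were higher, 7 partner genes were higher and 1 lower, and 13.8% and 9.35% of all genes were higher and lower. At 3-fold 2 pathway, 3 acylceramide and 1 partner gene were higher, with 3.06% and 1.02% of all. Signal over background limits *Alox8* to a bound and leaves *Alox15* without a value.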
